A study of Mus musculus with 2 samples.

Results

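The MHC class II antigen presentation genes were followed through the myeloid, dendritic, lymphoid and tumor cells of CT26 tumors, in 1 single-cell library of untreated tumors (UT) and 1 library of tumors treated with BUP-Gel (BUP). The members were taken by symbol, and all 8 were among the 33696 genes listed in both libraries: *H2-Aa*, *H2-Ab1* and *H2-Eb1*, *H2-DMa* and *H2-DMb1*, *H2-Oa*, *Cd74* and *Ciita*. The CT26 line comes from a mouse colon carcinoma, and the hosts were male BALB/c mice aged 6 to 8 weeks that bore the tumors under the skin. In BUP-Gel the local anesthetic bupivacaine is loaded into a hydrogel, here at a single dose of 40 mg/kg. The UT mice received no gel, so gel and drug cannot be told apart. Each library pooled 3 tumors. Live CD45+ and CD45- cells were sorted and mixed before loading, at 4 parts to 1 part in the labels and 3 parts to 1 part in the methods, so shares of all cells depend on that mix.

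MHC class II molecules are pairs of an alpha and a beta chain that hold a peptide at the surface of an antigen-presenting cell for CD4 T cells. *H2-Aa* and *H2-Ab1* encode the chains of I-A, and *H2-Eb1* encodes the beta chain of I-E, whose alpha chain *H2-Ea* is functional in BALB/c mice. *Cd74* is the invariant chain, which fills the groove of new class II molecules and guides them to endosomes. There H2-DM, the product of *H2-DMa* and *H2-DMb1*, exchanges the remnant of the invariant chain for peptide, and H2-O, with *H2-Oa* as its alpha chain, restrains H2-DM. *Ciita* is the transactivator that binds the factors assembled on class II promoters, and interferon gamma is known to induce it in macrophages. Dendritic cells carry class II constitutively, whereas macrophages in tumors vary widely and mouse carcinoma cells usually carry little.

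After barcodes with more than 100 UMIs (unique molecular identifiers, 1 per captured RNA molecule) and under 20% mitochondrial UMIs had been kept, 7163 UT and 6776 BUP cells remained, from 83228442 and 89918925 UMIs in all barcodes. They fell into 24 clusters, found without the members, the other pathway genes or the MHC class I genes. Clusters were named from marker genes, and names end in -like. Among monocyte and macrophage cells these were Cxcl3 and Arg1 macrophage-like (1262 UT and 795 BUP cells), mature C1q macrophage-like (986 and 418), cycling C1q macrophage-like (239 and 61), interferon-led macrophage-like (214 and 84) and monocyte-like cells (245 and 111). The dendritic classes were cDC1-like cells (68 and 86), which held all 9 cDC1 markers, and migratory DC-like cells (74 and 68), which held all 7 of theirs. A further cluster of 86 UT and 59 BUP cells was led by *Ctsk* and *Cd209a* and held both the dendritic cDC2 or moDC markers and osteoclast-type markers. Osteoclast-type markers reached 1000 CPM in only 3 UT and 13 BUP cells of it, which are split off further below. The cluster was left unnamed and is called the Ctsk and Cd209a cells. With 1 library per condition, no test between UT and BUP was possible and no p-value is given. Levels are UMIs of a gene per 1000000 UMIs of a class (CPM), and intervals, at 95%, hold counting error alone and say nothing of the spread between mice. In pooled tissue, fewer cells of a kind and less RNA per cell cannot be told apart by a sum, so values per cell are given beside the sums. The libraries shared 76 barcode sequences.

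In the GRCm39 build of the files, the 6 *H2* members lie together on chromosome 17. *H2-Oa* is at chr17:34311314-34314328 and *H2-DMa* at chr17:34338515-34358958, followed by *H2-DMb1* at chr17:34372046-34379204 and *H2-Ab1* at chr17:34476663-34488393, all on the plus strand. *H2-Aa*, at chr17:34493404-34506798 on the minus strand, overlaps *H2-Eb1*, at chr17:34504236-34535648 on the plus strand. *Ciita* is at chr16:10297923-10347694 on the plus strand. All are annotated as protein-coding. The reference is of another strain than BALB/c, and the MHC region differs between strains, so some reads of these tumors were matched to another haplotype, in both libraries alike. *H2-DMb1* has a close copy beside it, *H2-DMb2*, and reads that fit both cannot be assigned, so the *H2-DMb1* values are uncertain in level.

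Class II promoters are known for an X box, bound by the RFX complex, and a Y box, bound by NF-Y, on which *Ciita* acts. The 160 bases before the start site are shown for 5 members, from RefSeq in the older build GRCm38.p6, since the comparisons turn on these members and the table held them. Each is written 5′ to 3′ in the direction of the gene, and capitals mark matches, on either strand, to the letters AGCAAC (an X box core) or ATTGG (the Y box, CCAAT on the other strand). The windows are chr17:34287824-34287983 (minus strand) for *H2-Aa*, chr17:34305707-34305866 for *H2-Eb1*, chr17:34153031-34153190 for *H2-DMb1*, chr17:34092219-34092378 for *H2-Oa* and chr17:34122672-34122831 for *H2-DMa*, the last 4 on the plus strand.
H2-Aa: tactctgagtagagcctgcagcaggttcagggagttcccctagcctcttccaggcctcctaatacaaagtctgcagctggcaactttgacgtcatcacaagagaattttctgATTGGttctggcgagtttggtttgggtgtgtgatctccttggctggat
H2-Eb1: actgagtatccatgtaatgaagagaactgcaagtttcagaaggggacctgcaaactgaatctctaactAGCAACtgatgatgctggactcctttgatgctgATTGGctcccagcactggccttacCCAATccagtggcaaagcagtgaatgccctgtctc
H2-DMb1: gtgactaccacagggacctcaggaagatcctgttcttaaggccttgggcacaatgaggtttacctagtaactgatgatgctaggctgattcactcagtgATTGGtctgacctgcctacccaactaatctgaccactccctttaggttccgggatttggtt
H2-Oa: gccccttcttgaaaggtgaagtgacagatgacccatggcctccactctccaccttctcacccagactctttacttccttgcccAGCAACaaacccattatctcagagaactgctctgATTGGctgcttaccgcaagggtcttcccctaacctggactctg
H2-DMa: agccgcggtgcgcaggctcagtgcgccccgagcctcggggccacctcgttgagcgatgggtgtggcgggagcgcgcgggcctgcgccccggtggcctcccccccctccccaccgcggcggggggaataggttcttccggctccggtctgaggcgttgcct

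The Y box letters were found in the windows of *H2-Aa*, *H2-DMb1* and *H2-Oa* at 48, 61 and 43 bases before the start. In that of *H2-Eb1* they were found at 59 bases and, on the other strand, at 35 bases. AGCAAC was found in *H2-Eb1*, at 92 bases, and in *H2-Oa*, at 77 bases. The *H2-DMa* window held neither, and a window at its other listed start held neither as well. Other possible starts of *H2-DMa* were not searched, so these windows do not show that the gene lacks the boxes. Of 32851 RefSeq windows of the same length, 8.25% held AGCAAC, 25.6% held ATTGG and 0.231% held them as a pair in the same direction with 10 to 30 bases between, as *H2-Eb1* and *H2-Oa* did. A match is a description of the letters and not of binding. No promoter is shown for *H2-Ab1*, *Cd74* and *Ciita*.

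The class II chains were highest in the cDC1-like and the Ctsk and Cd209a cells, in both libraries. The UMIs of *H2-Aa*, *H2-Ab1* and *H2-Eb1* are summed here as the class II chains. Their level was 32568 CPM in UT and 33513 CPM in BUP in the cDC1-like cells, and 36198 and 24136 CPM in the Ctsk and Cd209a cells. Migratory DC-like cells came next, at 9430 and 8546 CPM. Every macrophage-like and monocyte-like class was below these, between 2646 and 5191 CPM in UT and between 2929 and 4558 CPM in BUP. A small cluster led by *Siglech*, a marker of plasmacytoid dendritic cells, that also carried B cell genes lay among them, at 4640 and 4204 CPM.

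The order of the macrophage-like classes was not the same in the libraries. In UT the Cxcl3 and Arg1 cells were at 5191 CPM (5147 to 5235), the interferon-led cells at 3606 CPM (3524 to 3690), the monocyte-like cells at 3572 CPM (3472 to 3674), the cycling C1q cells at 2811 CPM (2762 to 2861) and the mature C1q cells at 2646 CPM (2619 to 2673). In BUP the mature C1q cells were at 4558 CPM (4503 to 4614) and the Cxcl3 and Arg1 cells at 4524 CPM (4475 to 4573). The cycling C1q cells, at 3995 CPM (3869 to 4124), the monocyte-like cells, at 3940 CPM (3787 to 4097), and the interferon-led cells, at 2929 CPM (2815 to 3046), followed. The mature C1q cells were thus the lowest of the 5 in UT and shared the highest level in BUP. The interferon-led and monocyte-like intervals overlap in UT, and so do the cycling C1q and monocyte-like intervals in BUP, so these neighbours cannot be ordered. The intervals count UMIs and not cells, so the order of the other classes is a description as well. After each UT cell had been thinned to 2000 UMIs, the mean was 10.0 chain UMIs in the Cxcl3 and Arg1 cells and 5.65 in the mature C1q cells. The median was 1 in both of these classes and 0 in the monocyte-like cells.

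**Figure D1:**
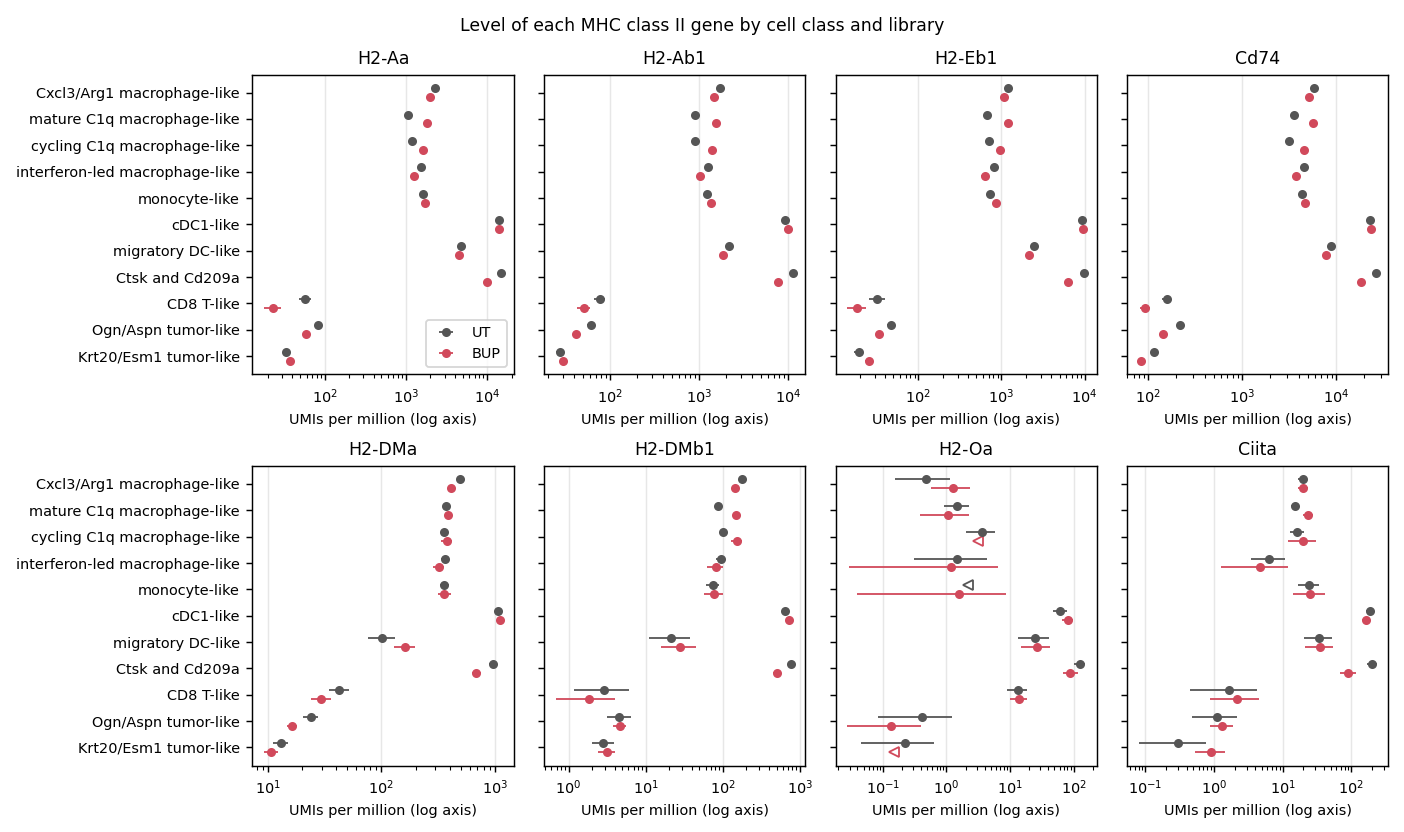
Level of each of the 8 genes (CPM, log axis) in 8 myeloid and dendritic classes and, as comparison, in CD8 T-like and 2 tumor-like classes. Grey points are UT and red points BUP, bars are 95% Poisson intervals of counting, and an open triangle is the limit that 0 UMIs allow. The dendritic classes lie to the right for the chains and *Cd74*, with the chains at 32568 and 33513 CPM in the cDC1-like cells, while *H2-DMa* and *H2-DMb1* of the migratory DC-like cells lie left of the macrophage-like classes.

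*Cd74*, the invariant chain, followed the chains across the classes. It was at 22882 in UT and 23668 CPM in BUP in the cDC1-like cells, at 26726 and 18329 CPM in the Ctsk and Cd209a cells, and at 8778 and 7840 CPM in the migratory DC-like cells. The macrophage-like and monocyte-like classes held 3177 to 5776 CPM in UT and 3794 to 5698 CPM in BUP. The balance of the 2 transcripts was not the same in all classes. For each 100 UMIs of *H2-Aa*, the mature C1q cells held 337 UMIs of *Cd74* in UT and 315 in BUP, and the Cxcl3 and Arg1 cells 256 and 263. The cDC1-like cells held 163 and 169, the migratory DC-like cells 184 and 174, and the Ctsk and Cd209a cells 178 and 184. On this measure the macrophage-like and monocyte-like classes lay between 256 and 337, all above the dendritic and the Ctsk and Cd209a cells, in both libraries. Cell by cell, after each cell had been thinned to 2000 UMIs, Pearson's r between the chains and *Cd74* on a log2 scale was between 0.62 and 0.96 over the 8 classes of both libraries, a description in which both values come from the same cell and depth.

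Migratory DC-like cells stood apart in the composition of the pathway. These cells, marked by *Ccr7* and *Fscn1*, are mature dendritic cells on their way to lymph nodes. Their chain level in CPM was above that of every macrophage-like class, but their level of the peptide exchange factor was below: *H2-DMa* was at 101 CPM in UT (76.5 to 131) and 161 CPM in BUP (129 to 197), against 320 to 493 CPM in the macrophage-like and monocyte-like classes of both libraries. *H2-DMb1* was at 21.3 and 27.9 CPM, on 12 and 16 UMIs, against 74.7 to 179 CPM. They also held fewer *H2-Ab1* UMIs per 100 of *H2-Aa*, at 45.8 in UT (42.8 to 49.0) and 41.4 in BUP (38.5 to 44.4), whereas the other 7 classes lay between 66.3 and 85.8. The chains were uneven in these cells. The 5 cells with most chain UMIs held 47.5% of them in UT and 47.2% in BUP, and among thinned cells the median was 4 chain UMIs of 2000 in both libraries, against 75.5 and 73 in the cDC1-like cells. Macrophage markers moved beside this class, from a summed 735 CPM in UT to 1733 CPM in BUP over 15 markers, and their part in the *H2-DMa* difference was not tested.

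*H2-DMa* lay in a narrow range between the macrophage-like and monocyte-like classes. In the 2 of them that were split by chain UMIs, it was higher in cells with more chain UMIs. It was at 354 to 493 CPM in the UT macrophage-like and monocyte-like classes and at 320 to 414 CPM in those of BUP, and reached 1067 and 1102 CPM in the cDC1-like cells, against 101 and 161 CPM in the migratory DC-like cells. Among mature C1q cells without any chain UMI of 2000, it was still at 275 in UT and 281 CPM in BUP, whereas *H2-DMb1*, its partner, was at 9.96 and 5.40 CPM there. In those with 10 or more chain UMIs, *H2-DMa* was at 657 and 617 CPM and *H2-DMb1* at 391 and 422 CPM. Between the same sets of Cxcl3 and Arg1 cells, *H2-DMa* went from 337 to 799 CPM in UT and from 288 to 662 CPM in BUP. The correlation of *H2-DMa* with the chains cell by cell was 0.23 and 0.26 in mature C1q cells, against 0.58 and 0.53 for *H2-DMb1*. Over all macrophage-like and monocyte-like classes of both libraries it lay between 0.22 and 0.47 for *H2-DMa* and between 0.49 and 0.63 for *H2-DMb1*.

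*H2-Oa* was near the floor in macrophages and had a distribution of its own. It gave 45 UMIs over 2946 UT and 17 over 1469 BUP monocyte-like and macrophage-like cells, or 1.40 and 1.11 CPM. The cDC1-like cells held 61.6 CPM (48.2 to 77.6) and 80.5 CPM (66.4 to 96.8), the Ctsk and Cd209a cells 124 CPM (101 to 151) and 89.0 CPM (67.2 to 116), and the migratory DC-like cells 24.8 and 26.2 CPM. CD8 T and NK cells were above macrophages: CD8 T-like cells were at 13.3 CPM (9.12 to 18.8) and 13.7 CPM (9.95 to 18.4), and NK-like cells at 9.39 and 10.3 CPM. In CD8 T-like cells the chains were at 166 and 92.2 CPM, far below the 3585 and 4390 CPM of the monocyte-like and macrophage-like cells together, so for *H2-Oa* the order of these lineages was turned around.

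*Ciita*, the transactivator, was a low transcript that followed the chains between classes. It was at 186 CPM in UT (162 to 212) and 161 CPM in BUP (141 to 183) in the cDC1-like cells, and at 199 CPM (169 to 232) and 90.6 CPM (68.6 to 117) in the Ctsk and Cd209a cells. Migratory DC-like cells held 33.7 and 34.9 CPM, of which 94.7% and 85.0% came from 5 cells. In the Cxcl3 and Arg1 cells it was at 19.5 and 19.8 CPM and in the monocyte-like cells at 24.4 and 25.1 CPM. Interferon-led macrophage-like cells, marked by *Rsad2* and *Ifit1*, were the lowest of the macrophage-like classes at 6.42 CPM (3.42 to 11) and 4.69 CPM (1.28 to 12), on 13 and 4 UMIs, although their chains were at 3606 and 2929 CPM.

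Between the libraries, 6 members were higher in BUP in the mature C1q macrophage-like cells. These cells, which express the complement genes *C1qa*, *C1qb* and *C1qc*, held 1062 CPM of *H2-Aa* in UT and 1808 CPM in BUP, 911 and 1542 CPM of *H2-Ab1*, and 674 and 1208 CPM of *H2-Eb1*. BUP was 1.70-fold higher for *H2-Aa*, 1.69-fold for *H2-Ab1* and 1.79-fold for *H2-Eb1*, and the summed chains had a log2 ratio of 0.78 (0.76 to 0.81). *Cd74* was at 3576 and 5698 CPM, 1.59-fold higher in BUP. *H2-DMb1* was at 86.6 CPM (81.8 to 91.6) and 148 CPM (138 to 159), 1.71-fold higher. *Ciita* was at 15 CPM (13.1 to 17.2) in UT and 23.5 CPM (19.7 to 27.8) in BUP, with a log2 ratio of 0.65 (0.32 to 0.97). Of the 7 members with at least 200 UMIs over both libraries, 6 were at least 1.5-fold higher in BUP, against 2.3% of the 8055 genes with that many UMIs in these cells. The exception was *H2-DMa*, at 370 and 389 CPM, a log2 ratio of 0.07. The members' median log2 ratio was 0.76, beside -0.03 for all those genes. The 5 cells with most chain UMIs held 8.20% of them in UT and 10.5% in BUP. Markers of other cells moved beside this difference: the 7 neutrophil markers, all detected, summed to 1684 CPM in UT and 4673 CPM in BUP in these cells, and the 10 monocyte markers to 647 and 932 CPM. Neutrophil-like cells held 451 and 226 CPM of the chains, below the mature C1q cells of either library. The part of these markers in the difference was not tested.

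**Figure D2:**
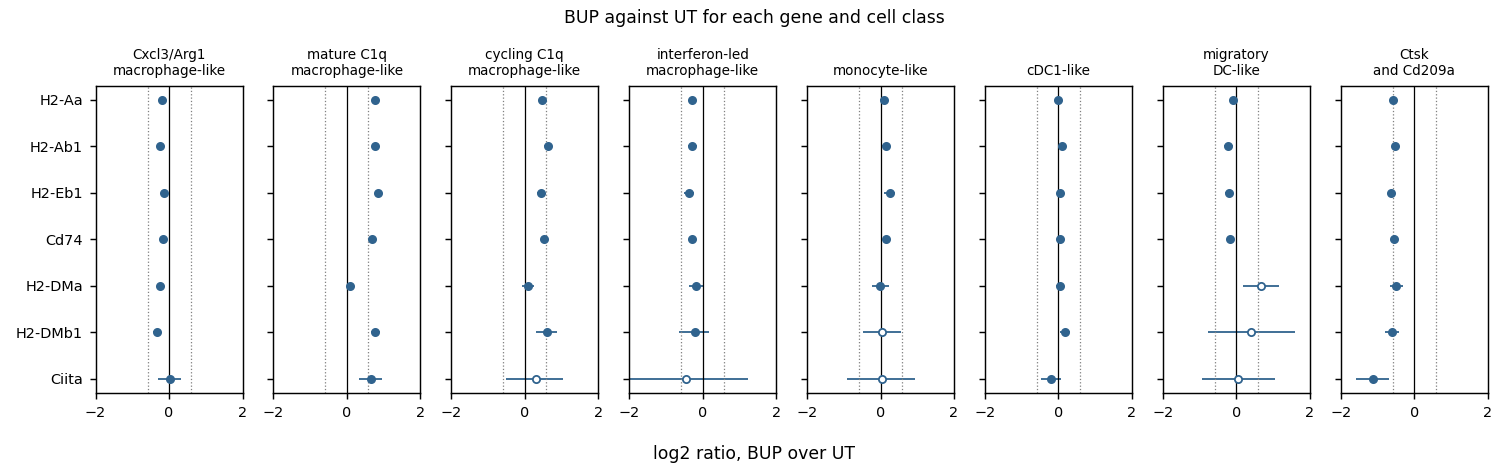
Log2 ratio of BUP over UT for 7 genes in 8 cell classes, with 95% intervals of counting error. Open circles are genes with under 200 UMIs in the class, dotted lines mark 1.5-fold in either direction, and intervals that pass the axis are clipped at -2 and 2. In the mature C1q cells all genes but *H2-DMa* lie right of the 1.5-fold line, and in the Ctsk and Cd209a cells all lie left of 0.

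The chain UMIs per mature C1q cell were higher in BUP over most of their distribution. Each cell was thinned to 2000 UMIs, which left 977 UT and 410 BUP cells. No chain UMI was found in 45.8% of the UT cells and 25.4% of the BUP cells, and 10 or more were found in 16.7% and 30.5%. The median was 1 chain UMI in UT and 3 in BUP, the 75th percentile 5 and 14, and the 90th percentile 18 and 31.1. Cells with 1 to 9 chain UMIs held a mean of 2.90 in UT and 3.66 in BUP, and their chains were at 1497 CPM (1464 to 1531) and 1889 CPM (1837 to 1942). Cells with 10 or more held a mean of 27.3 and 28.6, and their chains were at 12831 CPM (12681 to 12981) and 13344 CPM (13162 to 13528), intervals that do not overlap. These sets were cut by the chain UMIs themselves, so the level inside a set is largely fixed by the cut. *Cd74* in the cells with 10 or more was at 13941 CPM (13786 to 14098) and 14139 CPM (13952 to 14329), with overlapping intervals, and so was *Ciita*, at 67.8 CPM (57.4 to 79.6) and 60.6 CPM (48.9 to 74.2), and *H2-DMb1*, at 391 CPM (365 to 418) and 422 CPM (390 to 456). CD8 T-like cells, which should lack class II, had a chain UMI in 19.0% of thinned UT cells and 14.6% of thinned BUP cells.

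*Ciita* separated the mature C1q cells as the chains did. It was at 2.26 in UT and 3.38 CPM in BUP in cells with 0 chain UMIs, at 9.0 and 11.8 CPM in cells with 1 to 9, and at 67.8 and 60.6 CPM in cells with 10 or more. *H2-K1*, a class I heavy chain, was at 2152, 2351 and 2729 CPM in UT and at 1841, 2138 and 2602 CPM in BUP over the same sets, higher where the chains were high. *Arg1*, the arginase of immunosuppressive macrophages, went the other way, at 1785, 1732 and 706 CPM in UT and 1052, 936 and 506 CPM in BUP from the cells without to the cells with most chain UMIs. *Mrc1*, the mannose receptor, was also lower where the chains were high, from 1583 to 935 CPM in UT and from 1297 to 748 CPM in BUP, while *Cd86*, a costimulatory molecule, was higher, from 223 to 350 CPM in UT and from 288 to 411 CPM in BUP. *Arg1*, *Mrc1* and *Cd86* were among the genes open to the clustering, which the members were not. Median depth was 13944, 12250 and 12423 UMIs over the 3 sets of UT cells and 13629, 12618 and 10911 UMIs over those of BUP.

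**Figure D3:**
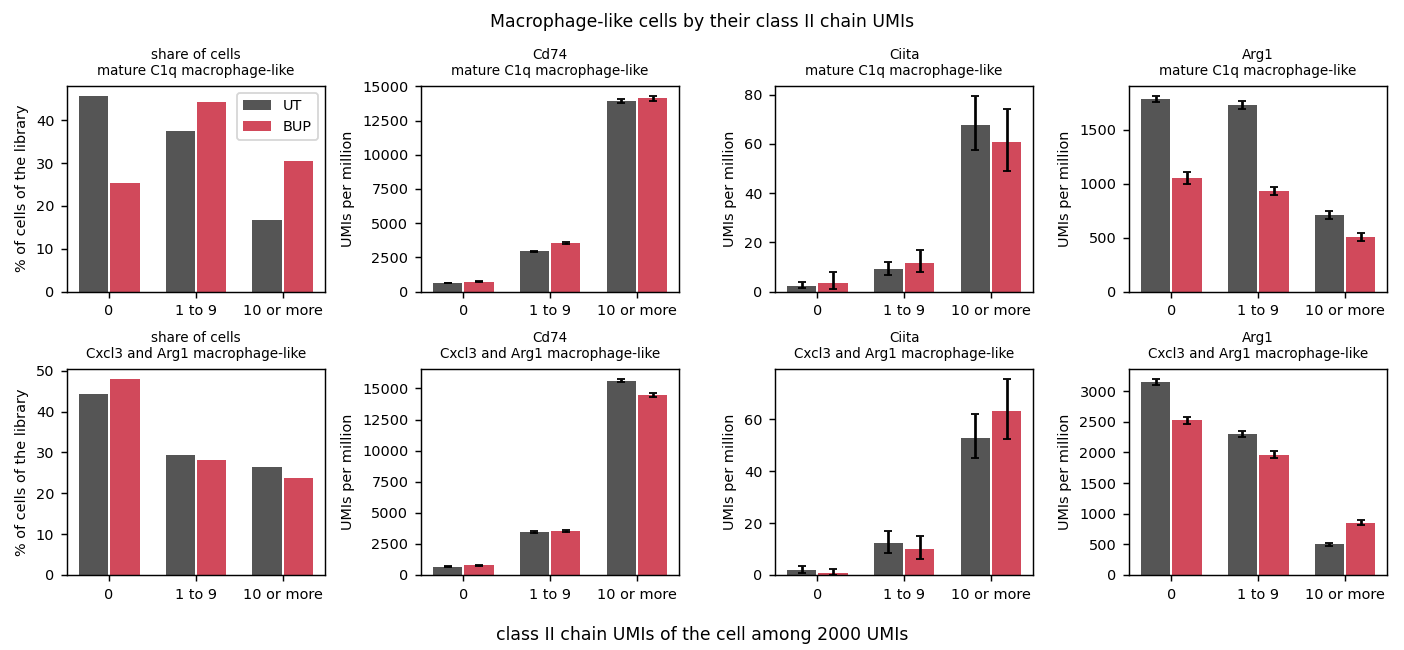
Mature C1q cells (top) and Cxcl3 and Arg1 cells (bottom) split by the class II chain UMIs found among 2000 UMIs of the cell. Bars give the share of cells in each set and the level of *Cd74*, *Ciita* and *Arg1*, grey for UT and red for BUP, with 95% Poisson intervals on the levels. The set with 10 or more chain UMIs held 16.7% of UT and 30.5% of BUP mature C1q cells, with *Cd74* at 13941 and 14139 CPM there.

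The Cxcl3 and Arg1 cells, which carry chemokine and arginase transcripts, did not share this difference. The chains were at 5191 in UT and 4524 CPM in BUP, a log2 ratio of -0.20 (-0.22 to -0.18), *Cd74* at 5776 and 5168 CPM, *H2-DMa* at 493 and 414 CPM and *H2-DMb1* at 179 and 143 CPM. *Ciita* was at 19.5 and 19.8 CPM. None of the 7 members with enough UMIs was 1.5-fold lower in BUP, where 1.22% of genes were, and none was 1.5-fold higher, where 0.932% were. In thinned cells, 44.3% of UT and 48.0% of BUP cells had no chain UMI and 26.4% and 23.7% had 10 or more. *Arg1* was lower toward the class II-high cells here as well, from 3146 to 502 CPM in UT and from 2524 to 852 CPM in BUP.

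Cycling C1q cells, which add cell-cycle transcripts to the C1q genes, had a chain level of 2811 CPM in UT and 3995 CPM in BUP, on 61 BUP cells. Of their 6 members with enough UMIs, *H2-Ab1* and *H2-DMb1* were at least 1.5-fold higher, at 907 and 1392 CPM and at 100.3 and 152 CPM, where 1.46% of genes were. The 5 cells with most chain UMIs held 28.8% of them in UT and 42.8% in BUP. Under a stricter cell filter, with the cells clustered again, the log2 ratio of the chains was -0.07 in place of 0.51. Interferon-led cells held 3606 and 2929 CPM of the chains and 4621 and 3794 CPM of *Cd74*, and none of 6 members was 1.5-fold lower, where 1.44% of genes were. The 5 cells with most chain UMIs held 20.7% of them in UT and 48.1% in BUP. Monocyte-like cells held 3572 and 3940 CPM of the chains, and none of 5 members was 1.5-fold higher, where 1.74% of genes were. Without the 5 cells with most chain UMIs in each library their log2 ratio changed from 0.14 to -0.05.

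With the monocyte-like and macrophage-like classes pooled, the chains were at 3585 in UT and 4390 CPM in BUP, a log2 ratio of 0.29 (0.28 to 0.31), and none of the 7 members was 1.5-fold higher, where 1.66% of genes were. The make-up of this pool differed between the libraries. The Cxcl3 and Arg1 cells, high in class II, were 42.8% of it in UT and 54.1% in BUP, and the mature and cycling C1q cells were 33.5% and 8.11% of it in UT and 28.5% and 4.15% in BUP. With the classes weighted by their UT proportions of cells in both libraries the log2 ratio was 0.15, and with each cell thinned to 2000 UMIs it was 0.13. The first of these also weights classes by cells in place of UMIs. Equal weight per cell, with the proportions of each library kept, gave a similar ratio, listed with the alternatives below. The value of 0.15 thus does not isolate the make-up, whose part was not tested.

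In cDC1-like cells, the dendritic cells specialized in cross-presentation, the members were close in the libraries. *H2-Aa* was at 14030 in UT and 13996 CPM in BUP, *H2-Ab1* at 9303 and 10028 CPM, *H2-Eb1* at 9235 and 9489 CPM, and *H2-DMb1* at 641 and 720 CPM. The log2 ratio of the chains was 0.04 (0.02 to 0.06), none of the 7 members was 1.5-fold higher, where 1.03% of genes were, and every thinned cell of both libraries held a chain UMI. This difference between the libraries changed sign under 4 of the alternatives, among them -0.02 without the top doublet scores. In migratory DC-like cells the chains had a log2 ratio of -0.14 (-0.20 to -0.09). None of 4 members was 1.5-fold lower, where 4.3% of genes were, and none was 1.5-fold higher, where 4.19% were. *H2-DMa*, on 57 UMIs in UT and 92 in BUP, had too few to be counted, and its level was higher in BUP, as given above. Pooled, these dendritic-like classes had a chain log2 ratio of 0.07 (0.05 to 0.09), which became -0.15 when the Ctsk and Cd209a cells were added. That addition brought in 3 UT and 13 BUP cells high in osteoclast-type markers, described next, so -0.15 is not a value for dendritic cells alone.

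The Ctsk and Cd209a cells were lower in BUP for all 8 members. *H2-Aa* was at 14976 in UT and 9964 CPM in BUP, *H2-Eb1* at 9905 and 6349 CPM, *H2-DMb1* at 766 and 506 CPM and *Ciita* at 199 and 90.6 CPM, and these 4 of 7 members were at least 1.5-fold lower, where 11.0% of genes were. The cluster held cells of different kinds. Osteoclast-type markers, among them the collagenase *Ctsk* and the phosphatase *Acp5*, summed to 1429 CPM in UT and 13775 CPM in BUP, while the 6 cDC2 or moDC markers summed to 2238 and 1404 CPM. Cells in which osteoclast-type markers reached 1000 CPM in the cell numbered 3 in UT and 13 in BUP, a limit set after the values were seen. The 3 UT cells held 0 chain UMIs, which allows up to 43.8 CPM, and the 13 BUP cells held 3912 CPM. Without these cells the chains were at 39633 CPM (39175 to 40095) in 83 UT cells and 37838 CPM (37218 to 38466) in 46 BUP cells, a log2 ratio of -0.07 in place of -0.58. *Ciita* was then at 216 CPM (183 to 253) and 141 CPM (106 to 185), with a log2 ratio of -0.61 (-1.09 to -0.15), so the transactivator stayed lower in BUP beyond counting error. *H2-Oa* was at 136 and 149 CPM.

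Tumor-like cells carried few class II transcripts. Their 3 classes, marked by *Ogn* and *Aspn*, by *Krt20* and *Esm1*, or by cell-cycle genes on top, held 147 CPM of the chains in UT and 126 CPM in BUP, against 166 and 92.2 CPM in CD8 T-like cells. In thinned cells, 6.27% of 1100 UT and 3.48% of 2413 BUP tumor-like cells had a chain UMI, below the share in CD8 T-like cells. In the *Ogn* and *Aspn* class, 73.8% of the chain UMIs in UT and 52.8% in BUP lay in 5 cells. Per 100 UMIs of *H2-Aa*, tumor-like cells held 78.0 and 76.4 UMIs of *H2-Ab1*, close to the 80.0 and 79.7 of the monocyte-like and macrophage-like cells. When the top 6% of doublet scores in each library were removed, the chains of tumor-like cells were at 39.5 in UT and 10.9 CPM in BUP. CD4 and gamma-delta T-like cells had 806 and 2788 CPM of the chains, of which 5 cells held 70.8% and 94.2%, so their levels rest on a few cells.

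Among other genes of the pathway, 1 was at least 1.5-fold higher in BUP and 1 at least 1.5-fold lower in mature C1q cells. Beside the members, 34 genes of 6 fixed lists were read, of which 27 had at least 200 UMIs there, with a median log2 ratio of 0.01. The only gene at least 1.5-fold higher, where 2.3% of genes were, was *H2-Ea*, the alpha chain of I-E, at 513 in UT and 859 CPM in BUP. *H2-DMb2* was at 81.5 and 113 CPM. *Ctsl*, an endosomal cysteine protease, was the only gene at least 1.5-fold lower, at 2555 and 1584 CPM, where 1.32% of genes were. Of the 12 genes for transcription of class II genes, 9 had enough UMIs and none differed by 1.5-fold, with *Irf1* at 233 and 247 CPM. For a list this short, 0 is near the shares of all genes, 2.3% higher and 1.32% lower. The same holds for the list that follows. Among 6 genes of the interferon gamma signal, none of the 5 with enough UMIs did: *Ifngr1*, its receptor, was at 146 and 155 CPM, *Jak2*, its kinase, at 44.3 and 63.6 CPM, and *Socs1*, its inhibitor, at 72.6 and 53.5 CPM. *Ifng* itself was at 320 CPM in CD8 T-like cells of both libraries.

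Genes of antigen processing differed by 1.5-fold in some classes, and no class I gene with enough UMIs did in any of the 8 classes. Of all genes, 2.3% were higher and 1.32% lower by that fold in mature C1q cells. In the Ctsk and Cd209a cells 9.88% were higher and 11.0% lower. *Ctss*, the protease that degrades the invariant chain in professional antigen-presenting cells, was at 2731 in UT and 2466 CPM in BUP in the mature C1q cells, and *Ctsb* was at 4811 and 3761 CPM. In cDC1-like cells 1 of 8 processing genes, *Ctsl*, was lower, at 382 and 154 CPM, where 3.65% of genes were. Of 10 class I genes, among them *B2m*, *H2-K1* and *Tap1*, all had at least 200 UMIs in mature C1q cells and none differed by 1.5-fold, with a median log2 ratio of -0.11. At the shares given for these cells, 0 of 10 does not set the list apart from other genes. *Nlrc5*, the class I counterpart of *Ciita*, was at 46.4 and 49.4 CPM. In the Ctsk and Cd209a cells, 2 of 7 processing genes were higher in BUP, where 9.88% of genes were: *Ctsd* at 234 and 456 CPM and *Lgmn* at 86.0 and 294 CPM. *Ctsh* was lower, at 505 and 283 CPM. Osteoclast-type markers differed in these cells as given, and their part in this was not tested. In migratory DC-like cells, 2 of 8 were higher, where 4.19% of genes were: *Ctsl* at 93.9 and 309 CPM and *Ctsd* at 143 and 230 CPM. *Ctsh* was lower, at 684 and 422 CPM, where 4.3% of genes were. Macrophage markers (735 and 1733 CPM) and the 5 CD8 T markers (72.6 and 344 CPM) were also higher in BUP in this class, and their part in these differences was not tested.

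**Figure D4:**
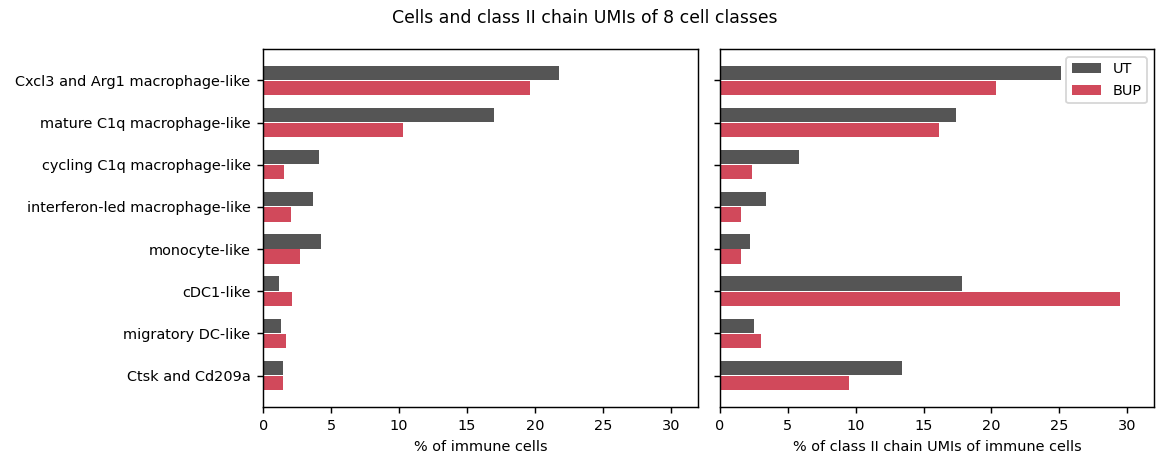
Share of immune cells (left) and share of the class II chain UMIs of all immune cells (right) for 8 cell classes, grey for UT and red for BUP. The cDC1-like cells were 1.17% and 2.12% of immune cells and held 17.8% and 29.4% of the chain UMIs.

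Summed over all immune cells, most class II transcripts lay in few classes. The chains gave 213890 UMIs in UT and 159741 in BUP. The Cxcl3 and Arg1 cells held 25.1% of them in UT and 20.3% in BUP, and the mature C1q cells 17.4% and 16.2%. The cDC1-like cells held 17.8% (17.6 to 18) and 29.4% (29.2 to 29.7), as 1.17% and 2.12% of immune cells, and the Ctsk and Cd209a cells 13.4% and 9.50%, as 1.48% and 1.46%. In BUP the cDC1-like cells therefore held more of the class II chain UMIs than any other class, whereas in UT the Cxcl3 and Arg1 cells did. The cDC1-like shares rest on 68 UT and 86 BUP cells, and their intervals count UMIs and not cells, so they are too narrow for the sampling of cells. Of all *H2-Oa* UMIs of immune cells, 386 in UT and 353 in BUP, the cDC1-like cells held 18.7% and 32%. A cluster that mixed T cell and myeloid transcripts held 7.5% and 9.56% of the chain UMIs.

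The genes whose level was most like that of the chains were ranked over the monocyte, macrophage, neutrophil and dendritic classes of both libraries, 20 points in 10 classes, by Pearson's r of log2(CPM + 1), among 3225 genes that reached 100 CPM in a class. *H2-Ea* came first with r = 0.99, then *Cd74* with 0.99 and *H2-DMb2* with 0.97. *Gpr171*, *Trerf1*, *Srebf2*, *Ppm1m*, *Ciita*, *Shtn1* and *Rps6* completed the first 10, with r from 0.96 to 0.93. The other members were lower: *H2-DMb1* was at rank 135 with 0.85, *H2-DMa* at rank 182 with 0.83 and *H2-Oa* at rank 288 with 0.78. These points share libraries and, in each class, depth, so the values are a description.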

How the data were processed

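Single cells of pooled CT26 tumors were profiled by the 5′ chemistry of 10x Genomics. The deposited matrices hold raw UMI counts per gene and barcode, which the authors made with Cell Ranger 8.0.1 against GRCm39, per the submitters' processing notes, and no normalization was applied to them. Cells with over 100 UMIs and under 20% mitochondrial UMIs were kept. Both libraries were clustered together with Seurat 5.3.0 (R 4.3.3) on log-normalized values, without integration, from 20 principal components of 2000 variable genes at resolution 0.5. The 53 class II, pathway and class I genes were left out of the variable genes. Clusters in which at least 30% of cells held *Ptprc* were clustered again as immune cells. Classes were assigned by hand from fixed markers after the clusters were seen. Doublets were scored by Scrublet (scanpy 1.11.5) and removed only where stated. UMIs were summed per class and library and given as CPM with exact Poisson intervals. Log2 ratios carry exact binomial intervals conditional on the summed UMIs, and shares exact binomial ones. On simulated counts for 8055 genes in the mature C1q cells, the intervals held the true ratio for 95.5% of 200 changed genes. Exact intervals give such coverage by design, so this checks the computation and not the spread between cells or mice. With 1 library per group, no test was made. The genes named are the 8 members, genes of the pathway lists past 1.5-fold with at least 200 UMIs or shown for their role, the class I list, and the 10 genes most like the chains. Pathway genes past 1.5-fold but not described above were *H2-Ea* and *Jak2* (higher in BUP) and *Socs1* (lower) in cycling C1q cells. Others, all lower, were *Lgmn* in interferon-led cells, *Marchf1* in monocyte-like cells, and *H2-Ea* and *Cd83* in the Ctsk and Cd209a cells. *Arg1*, *Mrc1* and *Cd86* were added after values were seen. The members and lists were chosen with earlier results of these data known, and the promoter letters with the sequences in view.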

Additional observations from a re-analysis of the deposited data

How the results depend on the processing

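With 1 library per group, no alternative leaves out a replicate, and differences between mice cannot be assessed. No paired analysis was possible because each group has a single library and no result comes from a test. Of 35 alternatives for the class II chains in mature C1q cells, in monocyte-like and macrophage-like cells together and in dendritic-like cells together, 10 stayed within the counting interval, 24 moved beyond it and 1 turned the direction, and the cause was not tested. The log2 ratio of the class II chains in mature C1q cells (0.78) became 0.73 at resolution 1.0, 0.81 with 30 principal components, 0.82 with the stricter cell filter (at least 1000 UMIs, 500 genes and under 10% mitochondrial UMIs), 0.81 with median ratio scaling, 0.87 after thinning, 0.88 with equal weight per cell, 0.87 as a difference of log-normalized means (natural log) and 0.85 with the CD8 T-like level subtracted. In the same order, the class II chains in monocyte-like and macrophage-like cells (0.29) gave 0.19, 0.26, 0.21, 0.38, 0.13, 0.16, 0.17 and 0.33, and further 0.26 with the class II and pathway genes kept for clustering, 0.27 without the 5 cells with most UMIs and 0.15 with UT proportions. The class II chains in dendritic-like cells (0.07) gave 0.048 at resolution 1.0, 0.045 with the stricter filter, 0.12 with median ratio scaling, 0.15 with equal weight per cell, 0.35 as log-normalized means, and -0.15 with the Ctsk and Cd209a cells added, which was chosen after seeing the data.

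For single genes and classes, 27 of 712 alternatives turned the direction of a log2 ratio whose counting interval lay clear of 0, and the cause was not tested. A further 25 gave the opposite sign where that interval held 0, among them *H2-DMa* in cycling C1q cells, *H2-Aa* in monocyte-like cells and *Ciita* in the Cxcl3 and Arg1 cells (0.02, and -0.80 after thinning). In cycling C1q cells the stricter filter gave -0.068 for the class II chains, -0.10 for *H2-Aa*, -0.0028 for *H2-Ab1*, -0.092 for *H2-Eb1* and -0.14 for *H2-DMb1*, and resolution 1.0 gave -0.0085, -0.00041 and -0.044 for *H2-Aa*, *H2-Eb1* and *H2-DMb1*. In monocyte-like cells, leaving out the 5 cells with most UMIs gave -0.052 for the class II chains, -0.065 for *H2-Ab1* and -0.028 for *Cd74*, thinning gave -0.023 for *H2-Ab1*, and log-normalized means gave -0.015 for *Cd74*. In cDC1-like cells the class II chains gave -0.0011 at resolution 1.0, -0.0022 with the stricter filter, -0.021 without the highest doublet scores and -0.0083 after thinning, *H2-Eb1* gave -0.0044, -0.0071 and -0.023 under the first 3 of these, and *Cd74* gave -0.011 without those scores and -0.0093 after thinning. In migratory DC-like cells, log-normalized means gave 0.16 for the class II chains, 0.069 for *H2-Ab1*, 0.033 for *H2-Eb1* and 0.15 for *Cd74*. In the Ctsk and Cd209a cells, thinning gave 0.21 for *H2-DMb1*.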
